A study of Homo sapiens with 10 samples.

Results

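A549 cells that received siRNA against ID1 and were then stimulated with nicotine or EGF were compared with A549 cells that received control siRNA and no stimulus. The comparison uses 3 of the 10 arrays of the study, chosen by their titles: ID1 siRNA with nicotine, ID1 siRNA with EGF, and control siRNA without a stimulus. A549 is an established human non-small cell lung cancer line. Cultures were starved of serum for 48 h, and stimulated ones then received 1 µM nicotine or 100 ng/ml EGF for 18 h. A further 2 A549 arrays, control siRNA with nicotine and control siRNA with EGF, are given beside the 3 as reference points, and the same 5 conditions exist for the EGFR-mutant line H1650. Each condition is 1 array, and the labels do not say whether arrays came from separate cultures, so the p-values measure only the spread between these arrays, which may be technical. The nicotine and EGF arrays of one siRNA in one line served as replicates of each other, and the spread therefore includes any difference between the stimuli. Since both the siRNA and the stimulus differ between the groups compared, their shares in a difference cannot be told apart from these 3 arrays. The siRNA sequence is not given in the sources used here.

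ID1 (inhibitor of DNA binding 1) is a helix-loop-helix protein without a DNA-binding region. It pairs with E proteins, which are basic helix-loop-helix transcription factors, and so keeps them off the E-box sequences they recognise in promoters. In many cell types ID1 is induced by serum, BMP and growth factors, and it is associated with proliferation and invasion in lung cancer cells. The comparison asks which genes stay apart from the unstimulated state when stimulation is combined with ID1 siRNA, and which are level with it.

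The values are MAS5 signals, an arbitrary linear brightness, of Affymetrix U133 Plus 2.0 arrays. All 10 arrays had been scaled to a trimmed mean of 500, and medians over all probe sets were 78.5 and 75.9 on the ID1 siRNA arrays, 65.2 and 61.2 on the stimulated control arrays and 66.1 on the unstimulated array. All 8 A549 markers, among them the keratins KRT8 and KRT18, were above the array median on all 5 A549 arrays. Of 14 markers of fibroblasts, endothelium and blood, 4 were below the median on all 5 arrays and 3, COL1A1, PECAM1 and HBB, were above it on all 5. The summed signal of the 14 was 1705 and 1691 with ID1 siRNA, 1136 and 1000 on stimulated controls and 1742 on the unstimulated array. The largest part of it was the collagen COL1A1, with 664 and 659, 403 and 223, and 853 in the same order. The spiked hybridisation control bioB read 1.48 and 1.84 times its unstimulated value on the ID1 siRNA arrays, and bioC read 1.24 and 1.58 times. The spike cre read 1.00 and 1.27 times its unstimulated value with ID1 siRNA and 0.99 and 1.60 times on the stimulated controls. The stimulated control EGF array also stood apart in its 3' GAPDH signal (24816 and 29796 with ID1 siRNA, 25780 and 41964 on stimulated controls, 25969 without a stimulus) and in the summed signal of the 8 A549 markers (149420 and 169727 with ID1 siRNA, 171991 and 268596 on stimulated controls, 170178 without a stimulus). Without that array 101 genes were called apart and 4796 were level, against 95 and 4346 with it, and the main counts that use it as a reference point are also given without it, a choice made after seeing the data. For GAPDH, the ratio of the 3' to the 5' probe set was 0.911 and 0.945 with ID1 siRNA, against 0.902 without a stimulus. The bioB, bioC and median signals thus move with the groups compared, and their part in the results was not tested beyond the centring described below.

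Throughout, a pair of values gives the nicotine array and then the EGF array. ID1 itself had signals of 1343 and 1343 with ID1 siRNA, 3720 and 3049 on the stimulated control siRNA arrays and 1645 on the unstimulated array. It was therefore lowest on the ID1 siRNA arrays and highest on the stimulated controls. The log2 difference between ID1 siRNA and unstimulated cells was -0.29 ± 0.15 (standard error), with a 95% interval of -0.63 to 0.05 (limma adjusted p = 0.537). ID1 was thus neither called apart nor placed within 1.5-fold of the unstimulated state. Among its relatives, ID2 had signals of 4356 and 4321 with ID1 siRNA, 9087 and 13553 on stimulated controls and 5446 without a stimulus. ID3 had 7789 and 7800 with ID1 siRNA, 4646 and 5256 on stimulated controls and 6490 without a stimulus. ID4, the dimmest of them, had 305 and 239, against 165 on the unstimulated array, and no member of the family was called (1, ID4, had an unadjusted p under 0.05). Of 9 E proteins and HES or HEY factors tested, none was called, 3 had an unadjusted p under 0.05, and 2 were level, TCF3 (which encodes the E proteins E12 and E47) and BHLHE40.

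Over 12514 genes, limma called 95 apart from the unstimulated state at an adjusted p under 0.05, which is 0.759% of those tested. They split into 82 higher with ID1 siRNA (0.655%) and 13 lower (0.104%). A total of 4346 genes (34.7%) were level, meaning that the 95% interval of the difference lay within 1.5-fold either way. The 8073 remaining genes were neither, and in simulated data of the same size the test recovered 34.3% of 2-fold changes and 71.2% of 4-fold changes, so a gene outside both classes has no verdict. Without any test, 273 genes (2.18%) were at least 2-fold higher on both ID1 siRNA arrays and 19 (0.152%) at least 2-fold lower. The excess of higher calls depends on scaling: centring each array on its median gave all genes a median log2 difference of -0.21, against 0.01 as deposited, and 32 genes higher and 26 lower, of which 32 and 12 were among the 95. The EGF array carried many of the calls, since 13 genes were called higher and 1 lower without it, 12 and 1 of them among the 95. Without the ID1 siRNA nicotine array the counts were 36 higher and 6 lower. Leaving out the H1650 ID1 siRNA arrays, which only lend the fit their spread, gave 49 higher and 3 lower without nicotine and 48 and 3 without EGF.

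**Figure D1:**
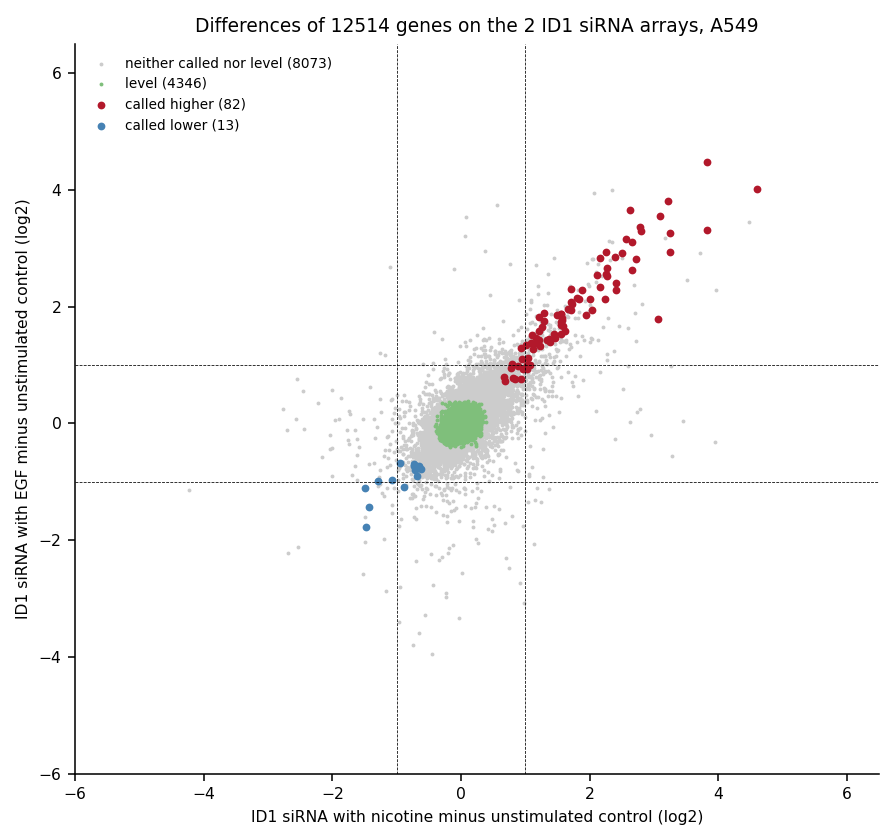
Log2 difference from the unstimulated A549 array for each of 12514 genes, on the ID1 siRNA nicotine array (x axis) and on the ID1 siRNA EGF array (y axis). Dashed lines mark 2-fold differences. The 82 genes called higher lie along the diagonal above 0, the 13 called lower form a small group below it, and the 4346 level genes sit around the origin.

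The largest group among the genes that rose was the interferon effectors, genes that cells switch on when type I or type III interferon receptors signal. The transcription factor complex that they share binds a promoter element called the interferon-stimulated response element, which was searched here as 2 copies of GAAA with any 2 bases between them, on both strands. All 38 listed effectors were tested, and 19 were called higher, none lower and none level. At an unadjusted p under 0.05 there were 37 higher and 1 lower, where all genes had 1380 in both directions (11% of those tested). Their median log2 difference was 1.94, against 0.01 over all genes, and 35 were at least 2-fold higher on both ID1 siRNA arrays, against 2.18% of all genes. The exception in direction was ZC3HAV1, an antiviral RNA-binding protein, with 2584 and 3203 in ID1 siRNA cells and 3669 in unstimulated ones. In cultures measured in bulk, more RNA per cell and more cells expressing these genes cannot be told apart.

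RefSeq promoter windows (build GRCh38.p14, 250 bases before to 50 after the start) were available for 31 of the 38, and 22 of these (71%) held that element, against 3.65% of all 27305 windows and 2.72% of those of tested genes. Among the 19 called effectors 16 had a window and 10 of these (62.5%) held it. The effectors were listed as interferon-induced genes, so their share is no result of these data. Among genes called higher that are not on the list, 10 of 46 windows (21.7%) held it. Those genes still include the called genes of interferon sensing and of MHC class I, and the interferon-induced RTP4. Their share is therefore not independent of interferon-induced genes either. For genes called lower it was 0 of 9, too few windows to read against 2.72%. A match describes letters only and is no evidence of binding. Of the called effectors, 4 are printed to show how the element sits, with all matches in capitals: BST2 at chr19:17405581-17405880 on the minus strand with overlapping copies, IFIT3 at chr10:89327747-89328046 with 2 separate copies in reverse orientation, MX1 at chr21:41420308-41420607 and IFI44 at chr1:78649539-78649838, the last 3 on the plus strand.
BST2: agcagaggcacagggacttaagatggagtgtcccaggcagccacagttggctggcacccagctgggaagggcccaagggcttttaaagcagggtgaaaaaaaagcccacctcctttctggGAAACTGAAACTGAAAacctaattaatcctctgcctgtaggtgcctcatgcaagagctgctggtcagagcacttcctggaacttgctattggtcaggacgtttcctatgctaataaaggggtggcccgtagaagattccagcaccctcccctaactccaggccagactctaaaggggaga
IFIT3: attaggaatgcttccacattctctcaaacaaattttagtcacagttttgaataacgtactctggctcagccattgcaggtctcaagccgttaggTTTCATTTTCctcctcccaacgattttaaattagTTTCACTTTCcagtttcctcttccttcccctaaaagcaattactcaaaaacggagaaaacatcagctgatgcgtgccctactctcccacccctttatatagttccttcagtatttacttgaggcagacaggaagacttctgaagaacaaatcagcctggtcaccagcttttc
MX1: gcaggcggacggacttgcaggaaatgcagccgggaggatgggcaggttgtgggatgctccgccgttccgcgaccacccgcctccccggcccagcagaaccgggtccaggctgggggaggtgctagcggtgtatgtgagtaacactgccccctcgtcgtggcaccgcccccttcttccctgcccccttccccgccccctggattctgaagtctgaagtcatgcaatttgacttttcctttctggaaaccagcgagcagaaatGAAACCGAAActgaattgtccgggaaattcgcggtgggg
IFI44: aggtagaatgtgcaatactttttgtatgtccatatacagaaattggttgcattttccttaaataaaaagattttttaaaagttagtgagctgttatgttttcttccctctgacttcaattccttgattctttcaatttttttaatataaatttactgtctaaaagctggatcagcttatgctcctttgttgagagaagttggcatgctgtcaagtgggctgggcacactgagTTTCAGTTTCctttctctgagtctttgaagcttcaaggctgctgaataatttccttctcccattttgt

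Among effectors that act on viral RNA and protein, IFIT3, which helps bind foreign RNA, had signals of 12624 and 16912 in ID1 siRNA cells, 958 and 1672 in stimulated controls and 2236 in unstimulated cells. Both ID1 siRNA arrays were above the unstimulated one and both stimulated controls below it. The log2 difference of ID1 siRNA from unstimulated was 2.71 ± 0.32 (adjusted p = 0.00842). MX1, a GTPase that traps viral particles, had 5755 and 7894 with ID1 siRNA, 361 and 615 on stimulated controls and 1091 without a stimulus, a difference of 2.63 ± 0.37 (adjusted p = 0.0166). BST2 (tetherin), which holds budding virus at the cell surface, had 754 and 1024 with ID1 siRNA, 11 and 21.7 on stimulated controls and 119 without a stimulus, a difference of 2.88 ± 0.34 (adjusted p = 0.00842). All 3 lay in the same order, with the unstimulated array between ID1 siRNA cells and stimulated controls. IFITM3, a membrane protein that blocks viral fusion, followed the same order at higher signals, 8368 and 8949 with ID1 siRNA, 1426 and 1867 on stimulated controls and 3318 without a stimulus. Its difference was 1.38 ± 0.19 (adjusted p = 0.0125), from a probe set that Affymetrix marks as shared among similar transcripts. SAMD9, which restricts poxviruses, rose by 1.89 ± 0.20 (adjusted p = 0.00413), with 2641 and 3401 in ID1 siRNA cells and 809 in unstimulated ones.

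The dimmest of the called effectors was RSAD2 (viperin), which makes a chain-terminating nucleotide, with 492 and 742 in ID1 siRNA cells and 71.7 in unstimulated ones, a signal close to the array median. CMPK2, its neighbour in function and position, had 4516 and 6842 with ID1 siRNA and 764 without a stimulus, a difference of 2.86 ± 0.53 (adjusted p = 0.0459). XAF1, a pro-apoptotic interferon target, differed by 3.32 ± 0.57 (adjusted p = 0.0361), the highest value on the list, with 2512 and 3476 in ID1 siRNA cells against 295 in unstimulated ones. Several of the brightest effectors did not pass the test, although the ID1 siRNA arrays were far above the unstimulated one. ISG15, the ubiquitin-like modifier, had 12151 and 18488 with ID1 siRNA, 1123 and 3599 on stimulated controls and 3686 without a stimulus (adjusted p = 0.161). IFIT1, which binds uncapped viral RNA, had 12406 and 15616 with ID1 siRNA, 712 and 2343 on stimulated controls and 2910 without a stimulus (adjusted p = 0.151).

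Across the list, 30 of 38 had both ID1 siRNA arrays above and both stimulated controls below the unstimulated array, against 13.3% of all genes. Without the control EGF array it was 36, against 16.8%. In 37 of 38 both ID1 siRNA arrays were above all 3 control siRNA arrays, against 23% of all genes. The list's median log2 difference from unstimulated was 1.71 and 2.10 on the ID1 siRNA arrays and -1.15 and -0.47 on the stimulated controls, values that share the one unstimulated array. EGF exceeded nicotine in all 38 with ID1 siRNA, against 52.8% of all genes, a direction for which there is 1 array on each side and no test. The number called was the least stable part: it was 8 after quantile normalization, 6 after median centring, 10 with the mean of all probe sets, 9 without a signal filter, 0 without an intensity trend in the variance prior, 7 without the ID1 siRNA nicotine array and 1 without the ID1 siRNA EGF array. It was 29 with A549 arrays only, 26 without either H1650 stimulated control array, 24 without either A549 stimulated control array and 13 without either H1650 ID1 siRNA array. The list's median stayed between 1.71 and 2.10 under all these settings.

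**Figure D2:**
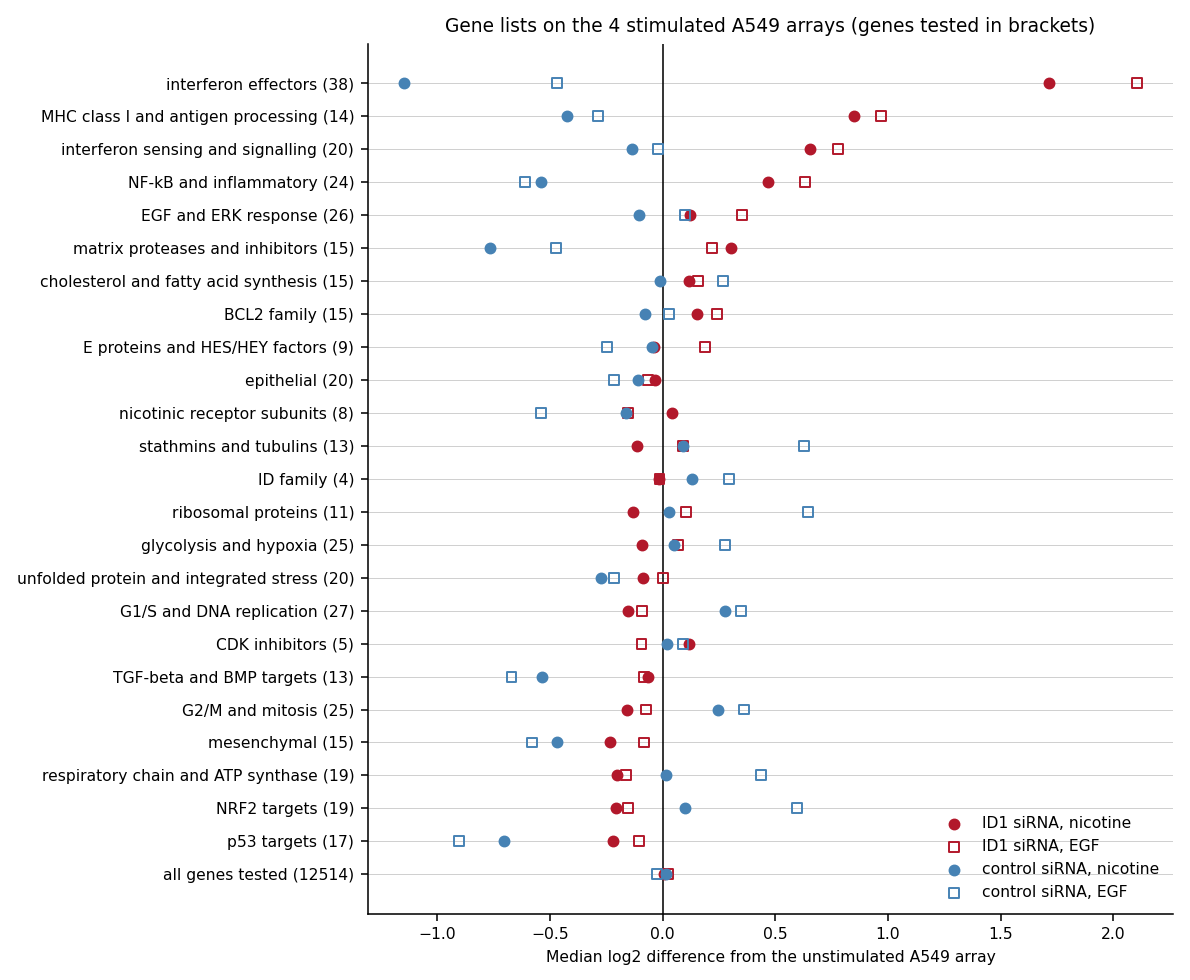
Median log2 difference from the unstimulated A549 array for 24 gene lists and for all genes tested (x axis), on the ID1 siRNA arrays (red) and the control siRNA arrays (blue), with circles for nicotine and open squares for EGF. Interferon effectors lie at 1.71 and 2.10 with ID1 siRNA and at -1.15 and -0.47 on the controls, whereas most other lists lie within 0.5 of 0 with ID1 siRNA.

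Upstream of the effectors, 20 genes of interferon sensing and signalling were tested. IFIH1 (MDA5), a cytoplasmic sensor of double-stranded RNA, and IFNGR1, the ligand-binding chain of the interferon-gamma receptor, were called higher, no gene lower, and TYK2 was level. At an unadjusted p under 0.05, 11 of the 20 were higher and none lower. The 2 calls became 0 without either ID1 siRNA array of A549 or of H1650, 6 without either H1650 stimulated control array and 7 with A549 arrays only. They also became 0 after median centring, without a signal filter, with the mean of all probe sets and without an intensity trend. Quantile normalization and the stimulus as a term gave 1 each. Adding 16 to the signal, a mean log2 signal of at least 8 and a filter on A549 arrays only gave 3 each. IFIH1 had 1506 and 1802 with ID1 siRNA, 116 and 225 on stimulated controls and 313 without a stimulus, a difference of 2.39 ± 0.45 (adjusted p = 0.0465). IFNGR1 had 7662 and 7147 with ID1 siRNA, 1977 and 1640 on stimulated controls and 3762 without a stimulus, a difference of 0.98 ± 0.18 (adjusted p = 0.0459). Both again had the unstimulated array between ID1 siRNA cells and stimulated controls. The sensor RIGI had 1726 and 1869 with ID1 siRNA, 891 and 1078 on stimulated controls and 698 without a stimulus and just missed the threshold (adjusted p = 0.0594). IFNL1, a type III interferon, had 152 and 257 with ID1 siRNA and 36.7 without a stimulus, where it was below the array median (adjusted p = 0.0548). IRF7, the factor that amplifies interferon production, had 2749 and 4442 with ID1 siRNA and 1090 without a stimulus (adjusted p = 0.242). The kinase JAK1, by contrast, had 5109 and 5391 with ID1 siRNA and 6473 without a stimulus, a lower value that was not called.

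Genes of MHC class I and antigen processing present peptides to T cells. All 14 tested were higher on both ID1 siRNA arrays than on the unstimulated one, against 39.5% of all genes, and 5 were called higher and none lower or level. At an unadjusted p under 0.05, 9 were higher. The 5 calls became 1 without the ID1 siRNA EGF array, 1 without an intensity trend and 3 with the mean of all probe sets. The median difference was 0.91. HLA-F had 4022 and 4788 with ID1 siRNA, 965 and 1124 on stimulated controls and 1362 without a stimulus, a difference of 1.69 ± 0.15 (adjusted p = 0.00175). The heavy chains HLA-B, HLA-C and HLA-E were also called, at 1.72, 1.67 and 1.10. Probe sets of these closely related genes share probes, so their calls are not independent of each other. TAP2, a subunit of the peptide transporter, rose by 1.41 ± 0.21 (adjusted p = 0.0197), with 1059 and 1117 in ID1 siRNA cells and 410 in unstimulated ones. The immunoproteasome subunit PSMB9 had 1939 and 2090 in ID1 siRNA cells against 671 in unstimulated ones (adjusted p = 0.0548). The light chain B2M had 26992 and 30453 with ID1 siRNA, 18087 and 27820 on stimulated controls and 23127 without a stimulus (adjusted p = 0.762).

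Of 24 NF-kB and inflammatory genes, 2 were called higher, none lower and 2 were level, with a median of 0.53. At an unadjusted p under 0.05, 11 were higher (45.8%) and none lower, where 6.54% of all genes were higher, and 21 of the 24 were higher on both ID1 siRNA arrays, against 39.5% of all genes. The 2 calls became 0 without the ID1 siRNA EGF array, 1 without the nicotine one and 5 without either H1650 stimulated control array. CCL5, a chemokine that attracts T cells and monocytes, had 960 and 1028 with ID1 siRNA, 153 and 165 on stimulated controls and 146 without a stimulus, a difference of 2.76 ± 0.35 (adjusted p = 0.00883). Here the stimulated controls were close to the unstimulated array and only the ID1 siRNA arrays were high. IL6, a pleiotropic inflammatory cytokine, had 970 and 956 with ID1 siRNA, 189 and 183 on stimulated controls and 318 without a stimulus, a difference of 1.60 ± 0.21 (adjusted p = 0.0123). The neutrophil chemokines did not pass the adjusted threshold. CXCL8 had 19371 and 22594 with ID1 siRNA, 7142 and 10186 on stimulated controls and 14977 without a stimulus (adjusted p = 0.506). CXCL2 had 10751 and 11690 with ID1 siRNA, 3041 and 3124 on stimulated controls and 6452 without a stimulus (limma unadjusted p = 0.00446, adjusted p = 0.186). CXCL3 had 8019 and 9205 with ID1 siRNA, 2280 and 2598 on stimulated controls and 4948 without a stimulus (limma unadjusted p = 0.00451, adjusted p = 0.186). In all 3 the stimulated controls were lowest and the ID1 siRNA arrays highest. The subunits NFKB1 and RELA were level.

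Outside the lists, 52 further genes were called higher, and the 9 of them named here and in the next paragraph (PI3 to FNIP1) were chosen after their values were seen. PI3 (elafin), an inhibitor of neutrophil elastase made by epithelia, had the smallest adjusted p of all 12514 genes. Its signals were 1433 and 1439 with ID1 siRNA, 231 and 255 on stimulated controls and 271 without a stimulus, a difference of 2.41 ± 0.14 (adjusted p = 0.000129). The controls lay together and the ID1 siRNA arrays stood apart from all of them. SLPI, a second elastase inhibitor, rose by 1.28 ± 0.22, with 3565 and 3849 in ID1 siRNA cells and 1527 in unstimulated ones. LCN2 (lipocalin 2), which withholds iron from bacteria, rose by 1.63 ± 0.27, with 9378 and 10252 in ID1 siRNA cells against 3178 in unstimulated ones. C1R, a protease of the first complement component, rose by 1.90 ± 0.29, CFB (complement factor B) by 1.99 ± 0.30 and C3 (complement component 3) by 1.08 ± 0.19. No list of complement genes was tallied, so nothing is said of the pathway's other members. C1R had 2235 and 2115 with ID1 siRNA, 319 and 219 on stimulated controls and 582 without a stimulus, and CFB had 2517 and 2374 with ID1 siRNA, 390 and 269 on stimulated controls and 614 without a stimulus. C3 had 5301 and 5590 with ID1 siRNA and 2567 without a stimulus. Adjusted p-values of these 5 genes lay between 0.0209 (C1R and CFB) and 0.0416 (C3).

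HDAC9, a class II histone deacetylase, had 1075 and 1064 with ID1 siRNA, 196 and 194 on stimulated controls and 366 without a stimulus, a difference of 1.55 ± 0.14 (adjusted p = 0.00175). NEU1, the lysosomal sialidase, had 984 and 1041 with ID1 siRNA, 459 and 403 on stimulated controls and 360 without a stimulus, a difference of 1.49 ± 0.15 (adjusted p = 0.00366). Both were high only with ID1 siRNA. FNIP1, a partner of folliculin, rose by 1.62 ± 0.16 (adjusted p = 0.00268), with 1063 and 1124 in ID1 siRNA cells, 686 and 600 in stimulated controls and 355 in unstimulated ones, so that all stimulated arrays exceeded the unstimulated one. Other bright probe sets of FNIP1 read 0.53, 0.93 and 0.66, and it was not called with the mean of all probe sets. From the lists, MUC1, a membrane mucin and the 1 epithelial gene called among 20, rose by 1.01 ± 0.19, with 760 and 743 in ID1 siRNA cells against 373 in unstimulated ones. BIK, a pro-apoptotic BCL2 relative and the 1 called of 15 in that family, rose by 0.95 ± 0.16, with 659 and 650 in ID1 siRNA cells against 339 in unstimulated ones. MUC1 was called in 9 and BIK in 10 of 19 alternatives, and neither without the ID1 siRNA nicotine or EGF array.

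**Figure D3:**
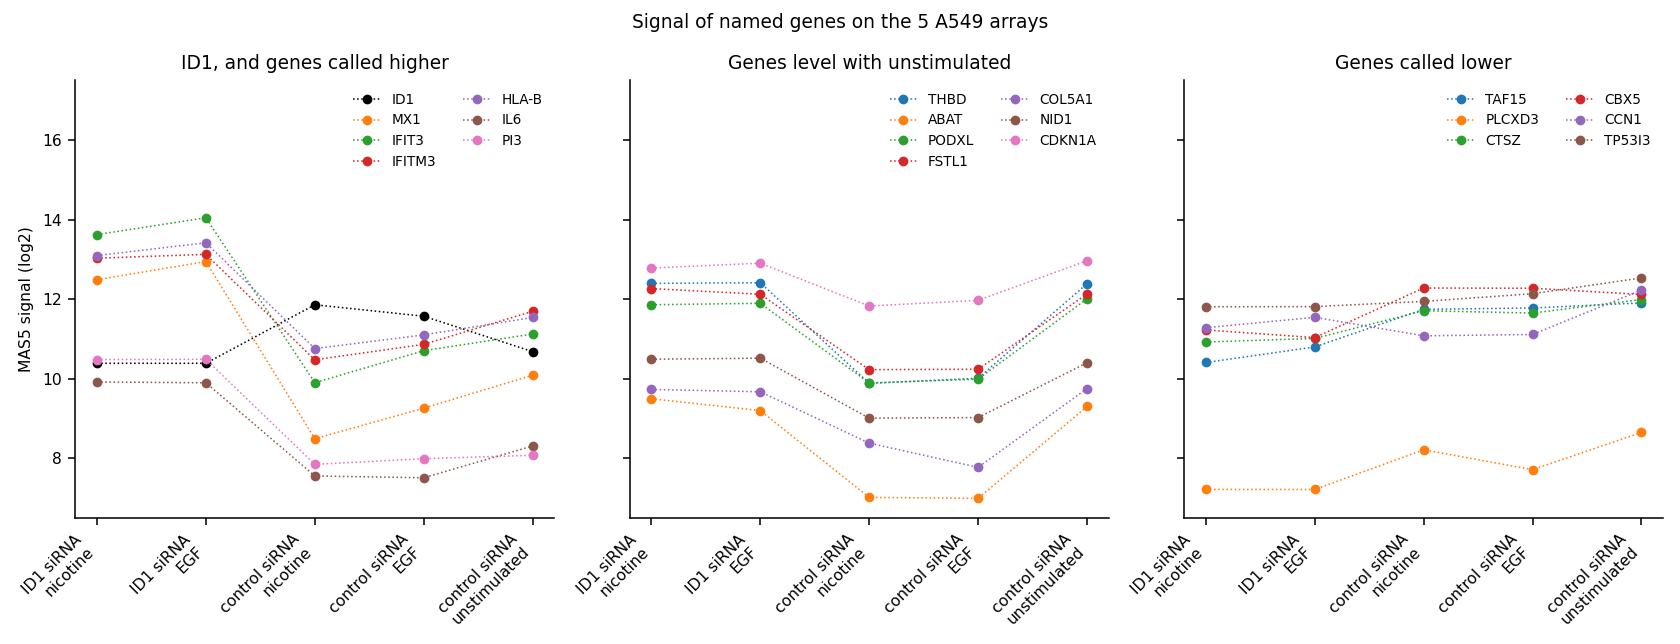
MAS5 signal (log2, y axis) on the 5 A549 arrays (x axis: ID1 siRNA with nicotine and EGF, control siRNA with nicotine and EGF, unstimulated control siRNA) for ID1 and 6 genes called higher (left), 7 level genes (middle) and 6 genes called lower (right); each point is 1 array and dotted lines only join points of a gene. Called interferon genes such as IFIT3 and MX1 are highest with ID1 siRNA and lowest on stimulated controls, while level genes such as THBD are low only on stimulated controls.

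The 82 genes that rose fall into several orders when the stimulated controls are set beside them. In 44, both stimulated control arrays were below the unstimulated one, as in IFIT3, in 24 both were above it, and in 14 they lay on either side. Of all genes, 39.5% were higher on both ID1 siRNA arrays, and 13.3% also had both stimulated controls below the unstimulated array. By the nicotine control array alone, 54 of the 82 had it below and 28 above. Of all genes, 16.8% had it below with both ID1 siRNA arrays above. These orders share the 1 unstimulated array, and whether they are particular to the called genes was not tested. In 12 of the 24, both stimulated controls were at least 2-fold above the unstimulated array. In 4 of these 12 all 3 control arrays were below their array medians, where the order of signals has no meaning, which leaves 8. CYP3A4, a drug-metabolising cytochrome P450, is of this kind, with 355 and 235 in ID1 siRNA cells, 232 and 136 in stimulated controls and 14.6 in unstimulated ones. PKD2L1, a cation channel, had 174 and 140 with ID1 siRNA, 127 and 120 on stimulated controls and 18.3 without a stimulus. Of the 82 genes 15, these included, were below the array median on the unstimulated array. For 11 of them a bound was computed against that median. It is given only where both ID1 siRNA arrays were above their own medians. CYP3A4 was at least 4.37-fold higher (adjusted p = 0.00855) and PKD2L1 at least 2.35-fold higher (adjusted p = 0.00894).

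In KLK10, HCP5 and RTP4 the stimulated controls and the unstimulated array were all dim. KLK10, a secreted kallikrein-related peptidase, had 105 and 74.3 with ID1 siRNA, 17.8 and 9.04 on stimulated controls and 7.45 without a stimulus (adjusted p = 0.00883). Its EGF signal with ID1 siRNA was below that array's median of 75.9, so no fold is given. HCP5, a noncoding transcript of the MHC region, had 86.2 and 134 with ID1 siRNA, 3.38 and 9.77 on stimulated controls and 6.06 without a stimulus and was at least 1.63-fold higher (adjusted p = 0.0189). RTP4, an interferon-induced chaperone of receptors, had 60.7 and 91.1 in ID1 siRNA cells against 6.53 in unstimulated ones (adjusted p = 0.0465). It was above the array median on only 1 of the 2 ID1 siRNA arrays, so no fold is given for it either. IRF8, a factor of myeloid cells, was also below the array median on all 3 control arrays, and had 106 and 108 with ID1 siRNA, 43.1 and 48 on stimulated controls and 11.2 without a stimulus, at least 1.61-fold higher (adjusted p = 0.0107). OR4D1, an olfactory receptor gene, had 115 and 114 with ID1 siRNA, 82.3 and 68.7 on stimulated controls and 18.4 without a stimulus, at least 1.73-fold higher (adjusted p = 0.0465). APOBEC3G, a cytidine deaminase that mutates retroviral DNA, was called too, but was below the array median on all 5 A549 arrays, with 27.1 and 38.6 in ID1 siRNA cells, 23.4 and 39.7 in stimulated controls and 3.92 in unstimulated ones, so no fold is given. APOBEC3G entered the test through H1650, whose arrays raise its mean over all 10. The same holds for KLK10, HCP5, RTP4 and IRF8, whose mean over the A549 arrays was below the signal filter. The calls of these genes therefore depend on a filter that H1650 helped them pass. With the filter on A549 arrays only, 75 genes were called higher, 72 of them among the 82.

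The genes that fell were 13: CDH3, PLCXD3, TAF15, COPG2, CTSZ, CBX5, CCN1, CMTM4, PAPSS1, TP53I3, TACC1, CRELD2 and MAGT1. Only PLCXD3, TAF15 and CDH3 met the 2-fold rule on both arrays. CDH3 was below the array median on all 5 A549 arrays and passed the signal filter only through H1650. TAF15, an RNA-binding protein of the FET family, had 1362 and 1784 with ID1 siRNA, 3435 and 3518 on stimulated controls and 3842 without a stimulus, a difference of -1.30 ± 0.19 (adjusted p = 0.0189). Its 2 other bright probe sets were higher in ID1 siRNA cells, by 0.51 and 0.10, and were the only ones of 77 such probe sets of called genes with the opposite sign. That sign is of the mean of the 2 ID1 siRNA arrays, and some probe sets of the same sign read much nearer no difference than the chosen one. PLCXD3, a phospholipase C-like protein, had 149 and 149 with ID1 siRNA, 298 and 211 on stimulated controls and 403 without a stimulus, a difference of -1.43 ± 0.23 (adjusted p = 0.0322).

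CTSZ (cathepsin Z), a lysosomal carboxypeptidase, had 1946 and 2071 with ID1 siRNA, 3353 and 3220 on stimulated controls and 4075 without a stimulus, a difference of -1.02 ± 0.15 (adjusted p = 0.0189). Its other bright probe set differed by 0.12 and -0.76 on the 2 arrays. CBX5, the heterochromatin protein HP1 alpha, had 2400 and 2100 with ID1 siRNA, 4978 and 4961 on stimulated controls and 4452 without a stimulus, a difference of -0.99 ± 0.17 (adjusted p = 0.0384). In CBX5 the unstimulated array was close to the controls, and only ID1 siRNA cells were low. The other bright probe sets of CBX5 read -0.48, -1.47, -0.45, -0.70 and -0.09. With the mean of all probe sets neither CTSZ nor CBX5 was called, nor were TAF15, PLCXD3, CCN1, TP53I3, TACC1 and MAGT1. CTSZ and CBX5 were described after their values were seen. CCN1 (CYR61), a matricellular protein and target of TGF-beta and YAP signalling, had 2493 and 2992 with ID1 siRNA, 2166 and 2217 on stimulated controls and 4799 without a stimulus, a difference of -0.81 ± 0.15 (adjusted p = 0.0493). The other bright probe set of CCN1 differed by only -0.33 and -0.24 on the ID1 siRNA arrays. On the chosen one, all 4 stimulated arrays were below the unstimulated one, whichever siRNA they had. TP53I3, a p53-induced quinone oxidoreductase, was likewise highest without a stimulus, with 3592 and 3602 in ID1 siRNA cells, 3945 and 4510 in stimulated controls and 5934 in unstimulated ones, a difference of -0.72 ± 0.13 (adjusted p = 0.0459). The TP53I3 call held in 10 of 19 alternatives. In 8 of the 13 both stimulated controls were below the unstimulated array, and in 5, among them MAGT1 and TACC1, both were above it. The share of all genes in these orders was not tallied.

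The level genes form the other side of the comparison. Among 4346 level genes, 19 differed at least 2-fold from the unstimulated array on both stimulated control arrays, 16 of them lower there and 3 higher. By the nicotine control array alone there were 22 lower and 4 higher. The share of all genes with such differences on the controls was not tallied, so whether these counts are unusual is not known. The genes were selected for differing on the controls, so that difference is no separate result. The 12 with the largest differences on the controls were THBD, ABAT, CSTA, PODXL, FYN, FSTL1, KITLG, NID1, COL5A1, IGFBP7, PLAGL1 and OGFRL1, and all 12 were lower on stimulated controls. THBD (thrombomodulin), the cell-surface cofactor with which thrombin activates protein C, had 5400 and 5460 with ID1 siRNA, 947 and 1034 on stimulated controls and 5364 without a stimulus. The 2 ID1 siRNA arrays and the unstimulated array nearly coincided, with a difference of 0.02 ± 0.24 and an interval of -0.51 to 0.54. FSTL1 (follistatin-like 1), a secreted glycoprotein that can bind BMP ligands, had 4931 and 4467 with ID1 siRNA, 1202 and 1211 on stimulated controls and 4487 without a stimulus, with an interval of -0.27 to 0.40. PODXL (podocalyxin), a sialomucin of the apical surface, had 3722 and 3815 with ID1 siRNA, 953 and 1019 on stimulated controls and 4129 without a stimulus, with an interval of -0.56 to 0.29.

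NID1 (nidogen 1), a linker of laminin and collagen in basement membranes, had 1442 and 1468 with ID1 siRNA, 517 and 522 on stimulated controls and 1356 without a stimulus. COL5A1, a fibrillar collagen chain, had 852 and 818 with ID1 siRNA, 334 and 219 on stimulated controls and 865 without a stimulus. IGFBP7, a secreted protein that binds insulin-like growth factors, had 9412 and 8227 with ID1 siRNA, 3444 and 2401 on stimulated controls and 8683 without a stimulus. In all 3 the unstimulated signal was near the ID1 siRNA signals, and the stimulated controls were lower. KITLG, the ligand of the receptor KIT, behaved alike, with 3205 and 3208 in ID1 siRNA cells, 1005 and 830 in stimulated controls and 2990 in unstimulated ones. Other probe sets differed from the chosen one for some: for THBD they read -0.01 and 0.46, for ABAT 0.44 and -0.41, for FYN 0.53 and for COL5A1 -0.18 and -0.54. Of the 12, 6 were still level after median centring, 9 after quantile normalization, 4 without the ID1 siRNA nicotine array and 6 without the EGF array.

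CCN2 (CTGF), a matricellular protein related to CCN1, had the same profile, with 2777 and 2774 in ID1 siRNA cells, 451 and 496 in stimulated controls and 2907 in unstimulated ones. Its interval of -0.82 to 0.68 was too wide to be called level, and it was not called. CCN1 was called in 7 of 19 alternatives, and a difference between the 2 genes was not tested. Of 13 TGF-beta and BMP targets, CCN1 was the 1 called, 3 were level (1 to 4 when 1 array was left out) and the median was -0.13, against -0.54 and -0.67 on the stimulated controls. Of 15 mesenchymal genes none was called (4 at an unadjusted p under 0.05) and 1, COL5A1, was level, with a median of -0.16. ACTA2, smooth muscle actin, had 1456 and 1242 with ID1 siRNA, 477 and 391 on stimulated controls and 2072 without a stimulus (adjusted p = 0.392). Of 20 epithelial genes 7 were level (11 without either A549 stimulated control array), and the cadherin CDH1 had 2210 and 1818 with ID1 siRNA and 1938 without a stimulus. Of 15 matrix proteases and inhibitors none was called (3 at an unadjusted p under 0.05) and 2 were level. PLAU (urokinase), which activates plasminogen, had 8634 and 9572 with ID1 siRNA, 1874 and 2925 on stimulated controls and 6850 without a stimulus (adjusted p = 0.697).

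Of 25 genes of G2/M and mitosis 17 were level and none called, with a median of -0.14, where 34.7% of all genes were level. Of 27 genes of G1/S and DNA replication 15 were level and none called, with a median of -0.10. All of these genes were bright, and level is reached more often by bright genes. Among genes with a mean log2 signal of at least 8, 4346 of 9264 were level, beside 17 of 25 for G2/M and 16 of 27 for G1/S. Whether these shares differ was not tested. At an unadjusted p under 0.05, 1 of the G2/M genes (CCNB2) and 3 of the G1/S genes (RRM1, E2F1 and UNG) were lower and none higher. MKI67, the proliferation antigen Ki-67, had 1403 and 1425 with ID1 siRNA, 1823 and 1736 on stimulated controls and 1441 without a stimulus. PLK1, a mitotic kinase, had 636 and 655 with ID1 siRNA, 890 and 872 on stimulated controls and 616 without a stimulus. In both, ID1 siRNA and unstimulated cells were close and stimulated controls were higher. The median over the G2/M list was 0.25 and 0.36 on the stimulated controls. MCM2, a subunit of the replicative helicase, had 2782 and 2887 with ID1 siRNA, 3139 and 3206 on stimulated controls and 2628 without a stimulus. The number level fell to 6 for G2/M and 5 for G1/S after median centring, which moved their medians to -0.36 and -0.32, against -0.21 over all genes, and the G2/M count was 10 without the ID1 siRNA EGF array.

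CDKN1A (p21), an inhibitor of cyclin-dependent kinases that E proteins and p53 both activate, was level, with 7053 and 7672 in ID1 siRNA cells, 3640 and 4019 in stimulated controls and 8015 in unstimulated ones. The log2 difference was -0.12 ± 0.15, with an interval of -0.45 to 0.20. MDM2, which degrades p53, was level too, with 8207 and 8418 with ID1 siRNA, 4477 and 3857 on stimulated controls and 7325 without a stimulus. The other bright probe sets of MDM2 went both ways, at -0.39, 0.06, 0.28, 0.38, -0.40 and 0.30. Of 17 p53 targets 4 were level (2 to 6 when 1 array was left out) and 1, TP53I3, fell, with a median of -0.19, against -0.70 and -0.91 on the stimulated controls. The promoter window of CDKN1A, at chr6:36678464-36678763 on the plus strand (RefSeq, GRCh38.p14), is printed because it holds the E-box CAGCTG (in capitals, both strands searched, its own reverse complement) at 3 places. That sequence is in 17.7% of all windows, 16.9% of those of tested genes and 0 of the 8 windows of the 12 level genes named above. It is in 14 of 62 windows of genes called higher (22.6%), 10 of 31 of interferon effectors (32.3%) and 0 of 9 of genes called lower. The E-box CACCTG, also searched, is in 18.5% of windows of tested genes, 21% of genes called higher, 16.1% of effectors and 3 of 9 of genes called lower. Differences between these shares were not tested.
CDKN1A: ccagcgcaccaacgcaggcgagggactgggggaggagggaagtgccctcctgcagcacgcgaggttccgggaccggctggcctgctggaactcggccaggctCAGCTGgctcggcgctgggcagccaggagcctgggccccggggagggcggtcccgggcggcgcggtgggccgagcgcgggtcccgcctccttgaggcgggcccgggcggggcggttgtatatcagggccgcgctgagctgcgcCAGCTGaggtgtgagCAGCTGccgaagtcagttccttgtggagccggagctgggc

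Of 26 EGF and ERK response genes 5 were level (2 to 6 when 1 array was left out) and none was called (5 at an unadjusted p under 0.05), with medians of 0.12 and 0.35 on the ID1 siRNA arrays. EGR1, an immediate early transcription factor, had 925 and 1202 with ID1 siRNA, 282 and 461 on stimulated controls and 234 without a stimulus (adjusted p = 0.366). EGFR had 1886 and 1891 with ID1 siRNA and 2848 without a stimulus (adjusted p = 0.124). Of 8 nicotinic receptor subunits tested none was called or level, and none had an unadjusted p under 0.05. CHRNA5, the brightest of them, had 1009 and 746 with ID1 siRNA, 1053 and 775 on stimulated controls and 938 without a stimulus.

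No gene was called among 25 of glycolysis and hypoxia (6 level), 19 NRF2 targets (3 level), 20 of the unfolded protein and integrated stress responses (8 level), 15 of cholesterol and fatty acid synthesis (8 level), 19 of the respiratory chain (11 level), 11 ribosomal proteins (none level) and 13 stathmins and tubulins (6 level). The level counts rest on single arrays: all 11 ribosomal proteins were level without either A549 stimulated control array and after quantile normalization, and 8 with the stimulus as a term. Leaving out 1 array at a time gave 3 to 15 level in glycolysis and hypoxia, 0 to 5 in NRF2 targets, 4 to 10 in the stress responses, 4 to 11 in cholesterol and fatty acid synthesis, 4 to 17 in the respiratory chain and 3 to 9 in stathmins and tubulins. At an unadjusted p under 0.05 these lists held 2, 1, 5, 3, 1, 0 and 1 genes in that order. Their medians ran from -0.18 in NRF2 targets and the respiratory chain to 0.13 in cholesterol and fatty acid synthesis. Of the NRF2 targets, GCLC, which makes glutathione, had 8035 and 8476 with ID1 siRNA, 14915 and 14892 on stimulated controls and 11975 without a stimulus (adjusted p = 0.15). STMN3, a stathmin that destabilises microtubules, had 173 and 208 with ID1 siRNA, 347 and 301 on stimulated controls and 137 without a stimulus (adjusted p = 0.636).

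For the difference between the lines, taken as an interaction in the same fit, the A549 difference minus the H1650 difference was called for 201 genes (1.61%), 147 higher in A549 (1.17%) and 54 lower (0.432%). Among the 38 interferon effectors 26 were called higher in A549 and none lower. Their median was 1.94 in A549 and -1.05 in H1650. MX1 had 7663 and 4940 with ID1 siRNA in H1650, against 16217 in unstimulated H1650, whereas in A549 it had 5755 and 7894 with ID1 siRNA, against 1091 without a stimulus. The unstimulated H1650 array was thus brighter than any A549 array for MX1, and ID1 siRNA cells were lower than it. The difference between lines was 4.03 ± 0.52 (adjusted p = 0.00802). RIGI, which missed the threshold in A549, was -2.11 in H1650 (adjusted p = 0.00643), and differed between lines by 3.48 ± 0.38 (adjusted p = 0.00416). Among the MHC class I genes 8 of 14 were called higher in A549 and none lower.

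ID1 differed between the lines as well. In H1650 it had 881 and 1031 with ID1 siRNA and 5030 without a stimulus, a log2 difference of -2.40 (adjusted p = 0.000281), against -0.29 in A549. The interaction was 2.11 ± 0.22 (adjusted p = 0.00324). ID1 was therefore low relative to the unstimulated array in H1650 and not called in A549. PI3 was called between lines at 2.63 ± 0.20 (adjusted p = 0.00151), with 9338 and 11128 in H1650 ID1 siRNA cells and 11914 in unstimulated H1650 cells. Among cell cycle genes 1 of 52 was called, lower in A549, with medians of 0.31 for G1/S and 0.37 for G2/M in H1650. The count of 201 was 37 without the A549 ID1 siRNA EGF array, 89 without the A549 nicotine one, 94 without the H1650 nicotine one and 72 without the H1650 EGF one.

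**Figure D4:**
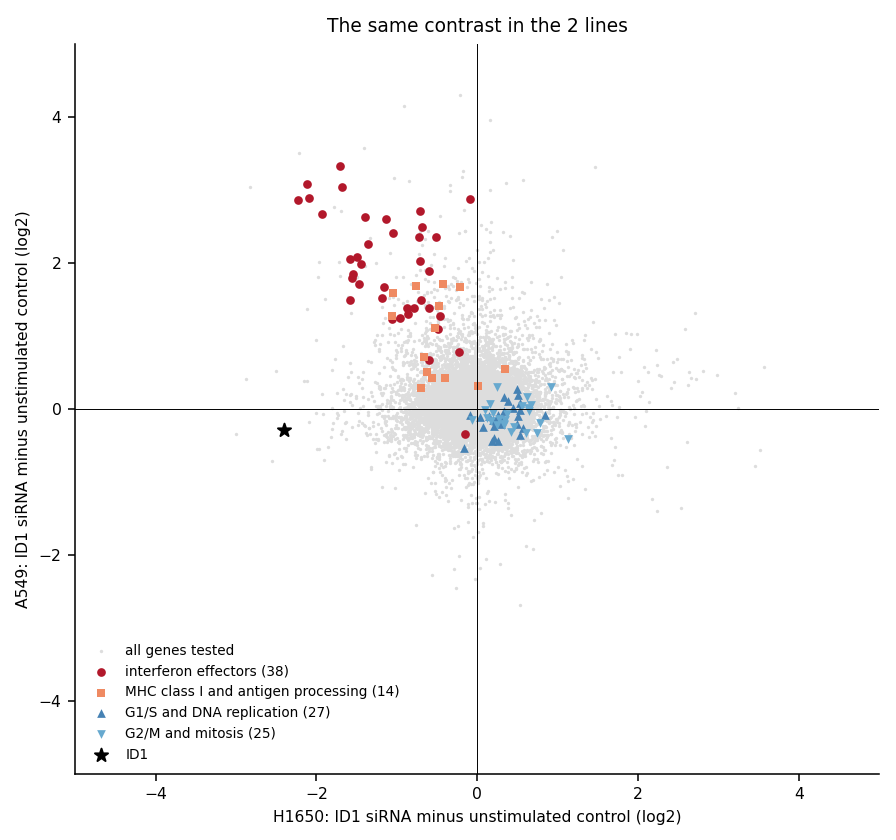
Log2 difference of ID1 siRNA cells from unstimulated control cells in A549 (y axis) and H1650 (x axis) for all genes tested (grey), 38 interferon effectors (red circles), 14 MHC class I genes (orange squares), 27 G1/S genes (blue upward triangles), 25 G2/M genes (light blue downward triangles) and ID1 (star). Interferon effectors lie in the upper left, with medians of 1.94 in A549 and -1.05 in H1650, and ID1 lies at -0.29 in A549 and -2.40 in H1650.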

How the data were processed

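The deposited values are MAS5 signal intensities, 1 per probe set and linear, which the authors computed in GCOS 1.4 with the MAS5 algorithm, per the submitters' processing notes. A log2 step is named in the labels, yet the deposited numbers are linear, so the logarithm was taken here. Of 54675 probe sets, 62 controls, 1801 with several genes and 11721 with no gene in the platform annotation were left out, and 41091 named 1 gene, 41037 of them matched by Entrez identifier. Each gene was represented by its probe set of highest mean log2 signal (19775 genes), and 12514 genes entered the test because their mean was not below the overall probe set median, log2 6.06 or a signal of 66.7. limma 3.58.1 (R 4.3.3) with an intensity trend fitted 6 groups, line by state, over 10 arrays with 4 residual degrees of freedom and a median of 5.96 prior ones; p-values were Benjamini-Hochberg adjusted over all genes tested. A lone unstimulated array is assumed to vary like the others. The number of arrays limits the precision.

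Genes were called at an adjusted p under 0.05 and level where the 95% interval lay within 1.5-fold. A gene below its array's median on every array of a group has only a bound there, computed against that median. The bound is given only where the other group's arrays were all above their own medians. The test was tried on simulated signals with 200 changed genes; it made 2 false calls (2.63%) and recovered 5.97% of 1.5-fold changes. Named genes are ID1, up to 12 per direction called and 2-fold changed on both ID1 siRNA arrays, up to 12 level genes 2-fold changed on both stimulated controls, up to 8 per direction for the difference between lines, and members of gene lists; others are marked as chosen after their values were seen. The groups of arrays and the gene lists were chosen with earlier results of these data known. Alternatives covered normalization, centring, added constant, filter, probe set, variance prior, arrays fitted, a stimulus term and leaving out arrays. Promoter windows come from RefSeq (GRCh38.p14). Genes with no annotated probe set were not analysed here.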

Additional observations from a re-analysis of the deposited data

Results flagged for a closer look

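The contrast of ID1 siRNA with unstimulated cells differed between A549 and H1650, by the interaction term in limma, for 201 genes, 147 higher and 54 lower in A549. By fitted value the first 8 of the higher ones were APOBEC3G (5.87 on the log2 scale), RTP4 (5.73), RSAD2 (5.20), CMPK2 (5.09), HCP5 (5.06), XAF1 (5.04), KLK10 (4.97) and OAS2 (4.73). RSAD2, CMPK2, XAF1 and OAS2 are on the interferon effector list. RSAD2 had 492 and 742 in A549 ID1 siRNA cells, against 71.7 unstimulated, and 3029 and 2019 in H1650 ID1 siRNA cells, against 10751 unstimulated. APOBEC3G was below the array median on all 5 A549 arrays, so its value has no meaning as a size and no place in the order. RTP4, HCP5 and KLK10 were below it on the unstimulated A549 array, so their values are fitted differences from a signal not above background, with no certain order either. By fitted value the first 8 of the lower ones were ZNF469 (-4.23), FXYD2 (-4.08), MAOA (-3.24), FLRT2 (-2.65), TNFRSF10D (-2.44), PPP2R2D (-2.24), PLCXD3 (-2.23) and CASTOR2 (-2.12). ZNF469, FXYD2 and MAOA were below the array median on the unstimulated H1650 array, so the same holds for them. MAOA, a monoamine oxidase, had 697 and 636 in A549 ID1 siRNA cells, against 663 unstimulated, and 86.7 and 181 in H1650 ID1 siRNA cells, against 13.2 unstimulated. For PPP2R2D another probe set disagreed with the chosen one.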

How the results depend on the processing

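The 95 genes apart became 52 after quantile normalization, 58 after median centring, 48 without a signal filter, 48 with the mean of all probe sets and 16 without an intensity trend. The 4346 level genes became 2487 after centring and 8966 with a 2-fold bound. The 292 genes 2-fold apart on both arrays became 1834 without a filter, 107 with a mean log2 signal of at least 8 and 823 at 1.5-fold. The 201 genes that differed between lines became 94 without a filter, 76 with the mean of all probe sets and 16 without a trend. Leaving out 1 array at a time gave 14 to 131 apart, 2657 to 4796 level and 37 to 269 different between lines; the lowest count apart was without the ID1 siRNA EGF array of A549 (14), then without its nicotine array (42) and without the H1650 ID1 siRNA arrays (52 without nicotine, 51 without EGF). Level counts fell to 2657 without the A549 ID1 siRNA nicotine array and 2880 without the EGF one. TACC1 turned to 0.13 when all its probe sets were averaged, and the cause was not tested. Of 45 called genes followed, HDAC9, HLA-F, NEU1 and PI3 were called in every alternative that gave them a value. The unstimulated array is single and could not be left out, and signals near the array median limit the dim genes. The labels give no replicate numbers, but arrays can be matched by stimulus: with EGF against nicotine as a term, 107 genes were apart, 4848 level and 247 different between lines.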
